A study of Mus musculus with 4 samples.

Results

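Pax3, Pax7, Six4, Eya1 and Eya2 encode 5 transcriptional regulators of muscle progenitor cells, and their transcripts were followed in differentiated C2C12 cultures with and without follistatin. They were taken as every non-control probe that the array annotation assigns to 1 of these 5 gene names, which gave 5 of the 21160 named genes on the array, and 7 probes on 16 spots of the 41174 probes on 43379 non-control spots. In brief, 4 of the 7 probes could be tested (1 for Pax7, 1 for Six4 and 2 for Eya1), and 0 of these 4 passed. The probes of Pax3 and Eya2 gave no signal well above background on any array.

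C2C12 is an established mouse myoblast line whose cells fuse into multinucleated myotubes when serum is lowered, while some cells stay single and undifferentiated. Untreated cultures were grown to 80% confluence with 10% fetal bovine serum and then differentiated for 6 days, without further addition. The follistatin cultures were grown in the same way and received 200 ng/ml of recombinant human follistatin, a secreted protein that binds activins and myostatin, every 24 h. For both groups, one label gives 2% horse serum during differentiation and another gives 10%. Each of 4 biological replicates was 1 array that held follistatin RNA in the Cy3 channel and untreated RNA in the Cy5 channel. The RNA came from whole cultures of 1 cell line, so that fewer cells of a type and less RNA per cell cannot be told apart.

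Pax3 and Pax7 are paired-box homeodomain proteins that act early in the muscle lineage: Pax3 marks progenitors of the somite and of migrating limb muscle precursors, and Pax7 marks the satellite cells of adult muscle. Six4 and its relatives are homeodomain factors that bind a DNA element called MEF3, present in the promoter of myogenin (Myog), and they recruit Eya proteins, which act as coactivators and also as phosphatases. Together these factors lie upstream of the myogenic bHLH factors Myf5, MyoD (Myod1), myogenin and Mrf4 (Myf6). Pax7 declines as myoblasts differentiate and is kept in quiescent reserve cells.

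The probes are the sequences through which these genes were read, and the first 30 of the 60 bases of each are shown, in lower case because no stretch is singled out. The 2 Pax3 probes lie at different places of the gene, as do the 2 Eya1 probes, which bears on the results below. Positions are those of the array annotation in mm9.
Pax3 A_51_P315734: aaatattagtctcgatcctttgataccgtg
Pax3 A_52_P169747: agccagcagtcatatatcctctcttatttc
Pax7 A_51_P295131: ccttgaccccaacaggttttcccaactgtc
Six4 A_52_P420340: tgctgcaaaggatcctctagtgattcctga
Eya1 A_52_P36315: aaatggccagtgttgagacctcttcatttg
Eya1 A_51_P375378: atccagtgaaagtaagccatgagaatgttc
Eya2 A_51_P334209: ttggccgcaaagctgtctacattgtgatag

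Pax3 probe A_51_P315734 is at chr1:78099476-78099535 and A_52_P169747 at chr1:78180183-78180242, both on the minus strand. The Pax7 probe is at chr4:139294364-139294423 and the Six4 probe at chr12:74201609-74201668, both on the minus strand. Eya1 probe A_52_P36315 is at chr1:14159153-14159212 and A_51_P375378 at chr1:14160732-14160791, both on the minus strand, and the Eya2 probe is at chr2:165594761-165594820 on the plus strand. Each probe lies in the gene it is named for, per the array annotation; whether it lies in coding or untranslated sequence was not determined here.

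A second set of sequences shows where the DNA elements of this network stand. In the RefSeq promoter windows of GRCm38.p6, which run from 250 bases before to 50 bases after a start site, the motif TCAGGTTTC (MEF3) was searched on both strands and was found in 141 of 32851 windows (0.429%). The E-box CANNTG, which myogenic bHLH factors bind, was found in 23756 windows (72.3%). Counted from the start site, with upstream positions below 0, the Myog window held MEF3 from -84 and E-boxes from -138 and -12. Of the 2 windows of Six4, 1 held MEF3 on the opposite strand, from -99, and the Pax7 window held neither motif. No window was available for Pax3, Eya1 or Eya2, so these genes were not searched. The stretches are chr1:134289854-134290003 on the plus strand for Myog and chr12:73113325-73113354 on the minus strand for Six4, with capitals marking the motifs.
Myog: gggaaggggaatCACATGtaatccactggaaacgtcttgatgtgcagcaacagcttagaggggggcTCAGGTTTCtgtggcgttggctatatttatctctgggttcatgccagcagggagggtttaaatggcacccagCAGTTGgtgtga
Six4: tggcctggggGAAACCTGAtcggccagatc
A match describes the letters in the window and does not show binding.

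Some facts of the arrays touch every result. Replicates 1 to 3 shared slide 1 and replicate 4 was on slide 2. Between 61.1% and 69.4% of the spots of a channel were well above background. Replicates 2 and 3 resembled each other (r = 0.817 over the ratios of all probes tested) more than any other pair did (r of 0.0379 to 0.318), so the ratios of Pax7 and Six4 are also given below with replicates 2 and 3 counted as 1 sample. The labels call every array a dye swap and define this as Cy3 for the follistatin RNA and Cy5 for the control, so the sign of each ratio rests on that statement. With 1 orientation on all 4 arrays, a dye effect specific to a gene and a follistatin effect cannot be told apart. All 9 myoblast and myotube markers were tested, whereas 0 of 3 endothelial markers (Pecam1, Cdh5 and Kdr) were. Of 4 adipocyte markers only Cebpa was tested, of 2 blood markers only Cd68, of 4 fibroblast markers 3 (Thy1 missed the filter), and of 3 epithelial markers 2. Of 5 satellite cell markers 4 were tested, and Calcr missed the filter. By limma with Benjamini-Hochberg adjustment, 2 of 27016 probes passed an adjusted p of 0.05, which is 0.0074%.

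Pax3 was not detected by either probe. Probe A_51_P315734 is printed on 10 spots, and 0 of the 40 spot readings in either channel were well above background. Its mean signals were 6.24, 7.47, 6.25 and 5.63 in the follistatin channel of replicates 1 to 4 and 7.18, 5.98, 5.21 and 4.09 in the untreated channel. The lowest signal called well above background on these arrays was 21.5 to 31.3 for follistatin and 15.3 to 30.02 for untreated RNA, so each of these means lay under it. Of the 40 readings, 2 were outlier spots that these means leave out, and 1 of these, in replicate 3, read 22.4 in the untreated channel without being called well above background. Probe A_52_P169747 gave 5.41, 11.8, 5.37 and 4.96 with follistatin and 7.12, 4.81, 4.92 and 3.32 without. The reading of 11.8 in replicate 2 was the highest of the 8 and was also under that limit. The 153 negative control spots had medians of 5.38 to 6.99 for follistatin and 3.57 to 7.10 for untreated RNA, so the Pax3 readings lay near those of spots without a target. A ratio was therefore not computed for Pax3: at this signal a difference was not detectable.

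Pax7, by contrast, was detected well above background with and without follistatin on each of the 4 arrays. Its signals were 94.2, 64.6, 74.0 and 76.0 with follistatin and 92.2, 82.05, 124 and 88.5 without, with means of 77.2 ± 12.4 and 96.8 ± 18.9 (SD, n = 4). The follistatin signal was the lower one in replicates 2, 3 and 4, was slightly the higher in replicate 1, and the groups overlapped. The log2 ratio of follistatin over untreated was 0.03, -0.35, -0.75 and -0.22 in replicates 1 to 4, with a mean of -0.32 ± 0.19 (SE, n = 4), a 0.801-fold level (95% interval 0.582 to 1.103). This missed the threshold (limma, adjusted p = 0.374). Replicate 3 held the lowest ratio, and without it the mean was -0.18. The scanner software's own p-value for the Pax7 spot in the authors' deposited table was 0.9, 0.217, 0.00243 and 0.357 in replicates 1 to 4. Negative ratios on at least 3 of 4 arrays were shown by 37.5% of all probes tested, so this count alone does not set Pax7 apart.

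Six4 encodes a homeodomain factor that acts in the specification of muscle progenitors. Its signals were 212, 323, 330 and 358 with follistatin and 200, 196, 239 and 303 without, with means of 306 ± 64.0 and 234 ± 49.3 (SD, n = 4). The follistatin signal was the higher on each array, although the groups overlapped because the untreated signal of replicate 4 exceeded the follistatin signal of replicate 1. The log2 ratios were 0.09, 0.72, 0.47 and 0.24, with a mean of 0.38 ± 0.18 (SE, n = 4), a 1.30-fold level (95% interval 0.958 to 1.76; limma, adjusted p = 0.293). Positive ratios on all 4 arrays were shown by 13.7% of the probes tested. With replicates 2 and 3 counted as 1 sample the mean ratio was 0.31 (adjusted p = 0.684). The software's p-value for its spot in the authors' deposited table was 0.693, 0.00117, 0.0292 and 0.244 in replicates 1 to 4.

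**Figure D1:**
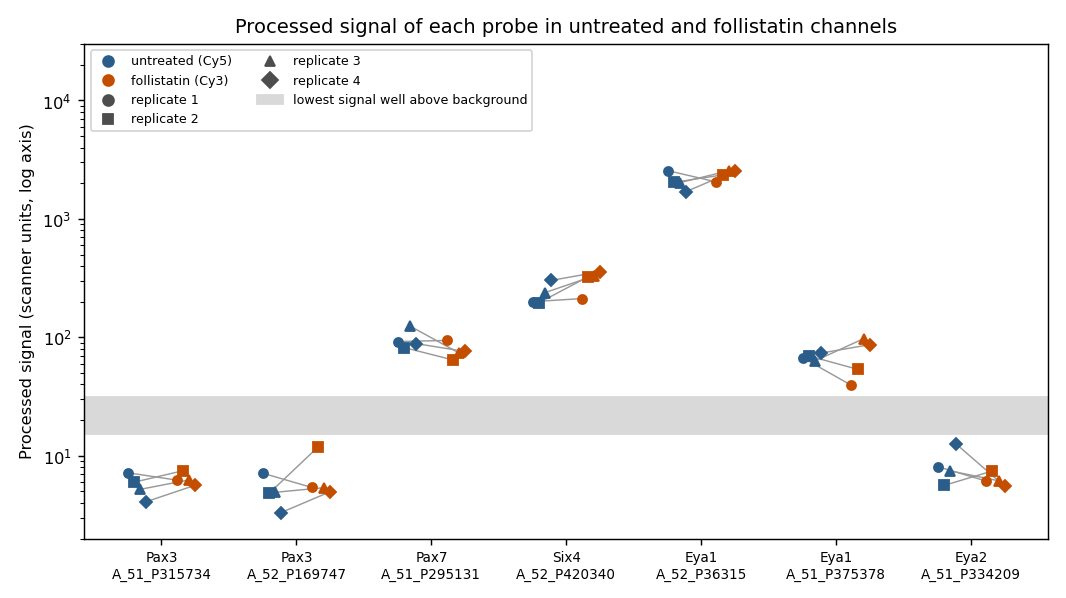
Processed signal (arbitrary brightness units, log axis) of the 7 probes of Pax3, Pax7, Six4, Eya1 and Eya2 in the follistatin and untreated channels, with 1 point for each of 4 arrays. The grey band spans the lowest signals called well above background (15.3 to 31.3); the Pax3 and Eya2 points lie under it, and the points of the 2 channels overlap for the other 4 probes.

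Eya1 was read by 2 probes whose mean ratios had opposite signs. Probe A_52_P36315 gave 2051, 2352, 2549 and 2547 with follistatin and 2557, 2038, 2026 and 1701 without, with means of 2375 ± 235 and 2081 ± 354 (SD, n = 4). Follistatin was the higher in replicates 2, 3 and 4 and the lower in replicate 1, where the untreated signal was the highest of the 8. The log2 ratios were -0.32, 0.21, 0.33 and 0.58, with a mean of 0.20 ± 0.20 (SE, n = 4), a 1.15-fold level (95% interval 0.820 to 1.61; limma, adjusted p = 0.594). Positive ratios on at least 3 of 4 arrays were shown by 39.2% of the probes tested. The software's p-value for the spot in the authors' deposited table was 0.122, 0.314, 0.108 and 0.00574.

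Probe A_51_P375378 of Eya1 gave 39.3, 53.7, 97.5 and 86.7 with follistatin and 67.1, 69.7, 63.2 and 73.7 without. The follistatin reading of 39.3 in replicate 1 was called well above background. That reading lay below the highest of the 153 negative control spots in the same channel and array, which was 45.8. The untreated signals stayed within a narrow range (68.4 ± 4.38, SD, n = 4), whereas the follistatin signals fell on both sides of it (69.3 ± 27.3). Its log2 ratios were -0.77, -0.37, 0.62 and 0.24, with a mean of -0.07 ± 0.26 (SE, n = 4; limma, adjusted p = 0.893). The direction of this mean rests on single arrays: it was 0.16 without replicate 1 and 0.03 without replicate 2. In the authors' deposited table the software's p-value was 0.0431 in replicate 1 and 0.0243 in replicate 3, where the ratios had opposite signs, and 0.269 and 0.349 in the other arrays. In replicate 1 both Eya1 probes were lower with follistatin and in replicates 3 and 4 both were higher, while in replicate 2 they had opposite signs.

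Eya2 was not detected. Its signals were 6.11, 7.45, 6.15 and 5.54 with follistatin and 8.09, 5.61, 7.46 and 12.6 without, all under the lowest signals called well above background. The untreated signal of replicate 4 was the highest of the 8. As for Pax3, no ratio was formed.

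**Figure D2:**
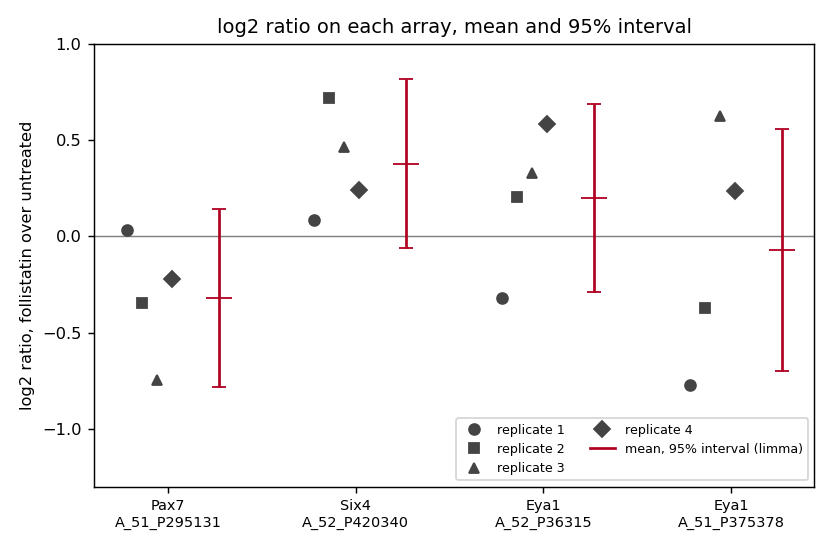
Log2 ratio of follistatin over untreated for the 4 probes tested, with 1 point for each array and the mean with its 95% interval from limma. The 4 Six4 points lie between 0.09 and 0.72, above 0, while the points of Pax7 and of both Eya1 probes lie on both sides of 0, and all 4 intervals include 0.

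Among the 4 probes tested, 0 passed an adjusted p of 0.05 and 0 an unadjusted p of 0.05 in limma, where 20.8% of all probes were under the latter, 9.93% higher and 10.8% lower with follistatin. The methods' t-test, applied to the same values without pairing the channels of an array, likewise passed 0 of 4, with adjusted p-values of 0.35 to 0.906, and had 0 of 4 under an unadjusted p of 0.05 beside 19.2% of all probes. The ratios of the 4 probes ranked differently on each array. Six4 stood at the 57.3, 87.6, 73.6 and 69.8 percentile of all tested ratios in replicates 1 to 4, and Pax7 at the 53.6, 28.1, 16.9 and 32.4 percentile. Eya1 probe A_52_P36315 went from the 29.1 percentile in replicate 1 to the 87.9 percentile in replicate 4.

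The paralogues were read from lists of related genes, each represented by 1 probe per gene. Of 7 other Pax genes, only Pax2 and Pax6 were tested, and Pax1, Pax4, Pax5, Pax8 and Pax9 missed the detection filter of 3 arrays. Pax2, which acts in kidney and inner ear, had a log2 ratio of -0.15 and Pax6, the eye and forebrain factor, of -0.28 (limma, adjusted p = 0.727 and 0.446). The Pax2 ratio was -0.35 without replicate 1 and -0.0029 without replicate 3. The Pax6 probe was well above background on 3 arrays in the untreated channel and on 0 in the follistatin channel, so it entered the test through the channel where it was higher, and its follistatin signals of 15.3 to 25.0 are not levels above background; its ratio was -0.11 without replicate 4. Of 8 relatives of Six4 and Eya1 and their Dach cofactors, 3 were tested (Six5, Eya3 and Eya4), and all 3 had a positive mean. Their median ratio was 0.37 beside 0.02 over all 14993 genes tested, of which 7767 (51.8%) were positive and 7226 (48.2%) negative. Of all these genes 16.7% were under an unadjusted p of 0.05 in limma, 9.14% higher and 7.57% lower, and 18% by the methods' t-test; the counts of each list below are to be read against these shares. Of these relatives, 0 passed and 1 (Eya4) was under an unadjusted p of 0.05 in limma, and the methods' t-test gave 0 and 1. Six2, Six3, Six6, Dach1 and Dach2 missed the detection filter. Dach proteins are corepressors that pair with the Six4 and Eya1 families.

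Eya4, a relative of Eya1, had 0.63 ± 0.24 by probe A_52_P295933 (SE, n = 4; limma, adjusted p = 0.219), with 0.55, 1.09, 0.99 and -0.12 in replicates 1 to 4. Its other probes had 0.37 (A_52_P86424) and -0.30 (A_52_P608186). Eya3, a broadly expressed relative, had 0.08 and 0.09 by 2 probes and -0.95 ± 0.30 by A_52_P1116481 (limma, adjusted p = 0.164). For Eya1, Eya3 and Eya4 the mean ratio had different signs by different probes, and the differences between probes were not tested. Six5, a relative first known from its place beside the myotonic dystrophy kinase gene, had 0.37 ± 0.24, with 0.62 without replicate 2 and 0.21 without replicate 3.

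The myogenic bHLH factors lie downstream. Myf5, the determination factor expressed earliest, had a log2 ratio of 0.40 ± 0.40 (SE, n = 4; limma, adjusted p = 0.589), with 0.32, 1.25 and 1.13 in replicates 1 to 3 and -1.11 in replicate 4. Its mean was 0.11 without replicate 2, 0.15 without replicate 3 and 0.90 without replicate 4. Myod1, the factor that commits myoblasts, had 0.08 ± 0.21, with -0.12 without replicate 1 and 0.21 without replicate 4. Myog, which drives terminal differentiation, had -0.12, -0.39, -0.39 and -0.45 on the 4 arrays, a mean of -0.34 ± 0.17 (limma, adjusted p = 0.297). Its signals of 56490 to 81340 with follistatin overlapped the 73940 to 91740 without. Myf6, the factor of mature fibres, was positive on all 4 arrays with 0.33 ± 0.17 (limma, adjusted p = 0.308). Of these 4 factors 0 passed, 0 were under an unadjusted p of 0.05, and their median ratio was 0.20; by the methods' t-test 0 passed and 1 was under an unadjusted p of 0.05, beside 18% of all genes.

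**Figure D3:**
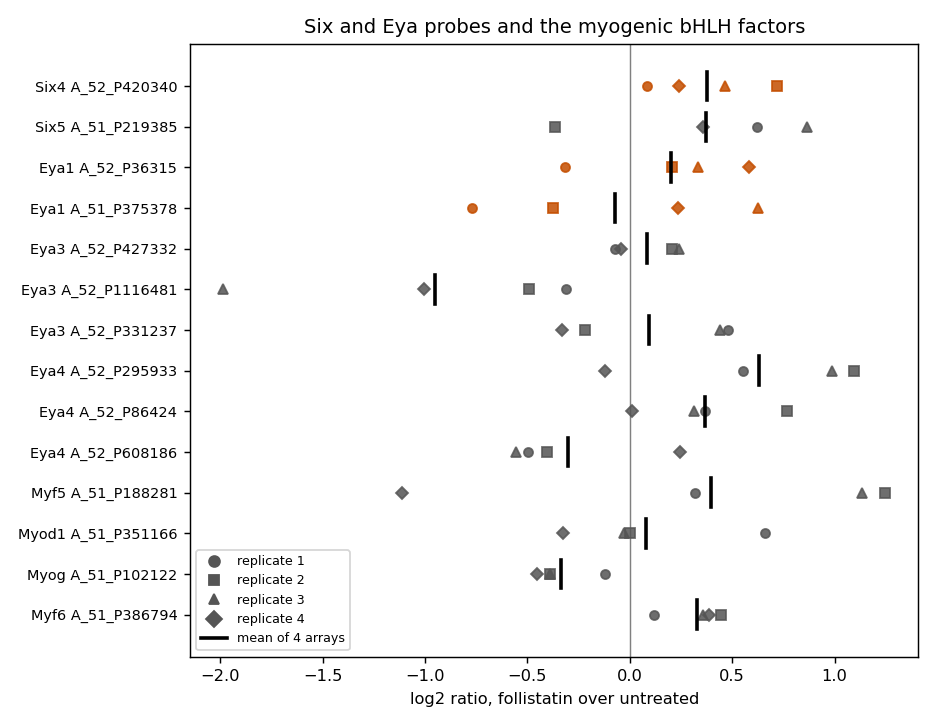
Log2 ratio of follistatin over untreated on each of 4 arrays for the probes of Six4, Six5, Eya1, Eya3, Eya4 and the myogenic bHLH genes, with the mean as a bar. The Six4 points lie above 0, the 3 Eya4 probes have means from -0.30 to 0.63, and Myog is below 0 on all arrays.

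The embryonic progenitor list holds factors and migration genes that act beside Pax3. Of 18 genes 15 were tested, 3 had a positive and 12 a negative mean, with a median of -0.11, and Meox2, Tcf15 and Sim1 missed the filter. None passed an adjusted p of 0.05 in limma and 1 was under an unadjusted p of 0.05, beside 16.7% of all genes; by the methods' t-test the counts were 0 and 3, beside 18%. Tbx1, a regulator of head muscle progenitors, was lower on all 4 arrays with -0.68 ± 0.19 (limma, adjusted p = 0.142). Foxc2, a forkhead factor of the paraxial mesoderm, had -0.43 ± 0.18. Zic1, a zinc finger factor of the dorsal neural tube and somite, had -0.45 ± 0.21 by 1 probe and -0.41 by another (limma, adjusted p = 0.276 and 0.292), with -0.29 for the first without replicate 1. Met, the receptor through which Pax3 directs migration, had 0.18, with its 3 probes ranging from -0.04 to 0.50, and 0.08 without replicate 2 for the probe that stood for it. Cxcr4, a chemokine receptor of migrating precursors, had -0.63 by 1 probe and 0.58 by another; the first was -1.77 in replicate 1 and had a mean of -0.25 without it.

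The satellite and reserve cell list, which shares Cxcr4, Met and Fgfr4 with the embryonic one, gave 18 tested genes of 19, with 13 positive and 5 negative means and a median of 0.14. Of these, 0 passed in limma and 2 were under an unadjusted p of 0.05, both higher, where 9.14% of all genes were; the methods' t-test gave 0 and 1, beside 18%. These 2 were Fgfr1, a growth factor receptor of satellite cells, with 1.01 ± 0.37 by its brightest probe, and Hes1, a target of Notch, with 0.63 ± 0.24 (limma, adjusted p = 0.205 for each). The 4 probes of Fgfr1 ranged from -0.51 to 1.01. The brightest had 2.15 in replicate 1 and -0.28 in replicate 4, and means of 0.63 without the former and 1.44 without the latter. Megf10, a receptor of satellite cells, was positive on all 4 arrays with 0.36 (limma, adjusted p = 0.293). The counts of this list use the brightest probe of each gene, and other probes of a gene could differ from it. The probes of Ncam1 ranged from -1.60 to 0.53, and Heyl had 0.06 by its brightest probe and 1.05 by another.

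The 10 genes of differentiated muscle were all tested, and 2 had a positive and 8 a negative mean, with a median of -0.16. Of these 0 passed in limma and 2 were under an unadjusted p of 0.05, both lower, where 7.57% of all genes were; the methods' t-test gave 0 and 2, beside 18%. Tnnc2, the troponin C of fast fibres, had -0.89 ± 0.18 (limma, adjusted p = 0.107) and was lower on all 4 arrays. Myh1, a fast myosin heavy chain, had -0.57 ± 0.20 by its brightest probe. Its other probe had -0.22, with 1.327, -1.525, -1.476 and 0.792 in replicates 1 to 4. Myh3, the embryonic one, had -0.55 ± 0.27, which was -0.85 without replicate 1 and -0.34 without replicate 3. Another Myh3 probe had -0.41. Tnnt3 of the same list went the other way, with 0.30 by its brightest probe and 0.17 by another. The neural marker list had a summed signal of 2987 to 3586 with follistatin and 3594 to 4567 without. These ranges did not overlap, and the signal came mostly from Tubb3 (-0.38). The sums of the differentiated muscle list did not overlap either, at 1075000 to 1690000 with follistatin and 1707000 to 2097000 without. Tnnc2 had the highest mean signal of that list, at 278700 to 420900 with follistatin and 618900 to 726600 without. Myh1 did not overlap either, at 82180 to 138300 with follistatin and 169500 to 189400 without. Mylpf, the next highest after Tnnc2, overlapped, at 246100 to 364400 with follistatin and 329600 to 384200 without. The sums of the embryonic progenitor list did not overlap, at 19620 to 20730 with follistatin and 21600 to 29490 without. How often such sums do not overlap over all genes was not determined. The myoblast and myotube markers summed to 735500 to 1141000 with follistatin and to 862100 to 1199000 without, which overlapped. The 3 fibroblast markers summed to 5114 to 9358 with follistatin and 4133 to 8821 without. Among them Dpt, which encodes the matrix protein dermatopontin, was higher with follistatin on all 4 arrays, with 1.52 ± 0.16 (SE, n = 4; limma, adjusted p = 0.1015). Cebpa, an adipocyte factor also found in other cells, had 0.96 ± 0.31 by its brightest probe (limma, adjusted p = 0.168), with -0.16 in replicate 4. The signals of this probe were 262 to 465 with follistatin and 96.6 to 294 without. Another Cebpa probe, A_51_P214087, had 0.24 (limma, adjusted p = 0.573). Cd68 had 0.26 ± 0.17. The 2 epithelial markers summed to 158 to 230 against 145 to 270. The part of any of these lists in the ratios of Pax7, Six4 and Eya1 was not tested.

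**Figure D4:**
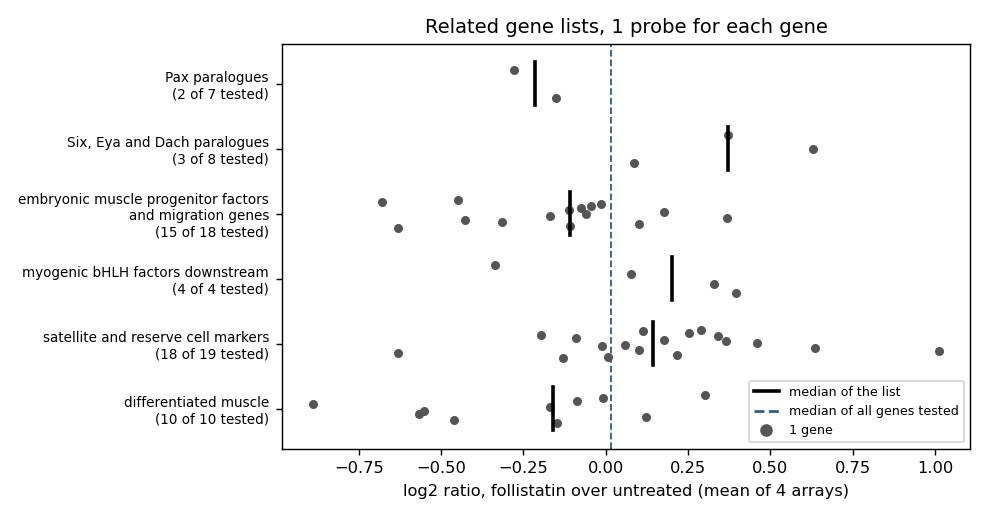
Log2 ratio of follistatin over untreated for each gene tested in 6 lists (1 point per gene, mean of 4 arrays), with the median of each list as a bar and of all 14993 genes (0.02) as a dashed line. The embryonic progenitor list has 12 of 15 points below 0 and the satellite and reserve cell list 13 of 18 above 0.

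Genes whose ratios over the 4 arrays were most like those of each tested probe were found by Euclidean distance among 13599 genes. For Six4 they were Triqk (0.0558), Hsdl2 (0.109) and Sema3e (0.132), where the median distance of all genes was 1.17. For Pax7 they were Tmem205 (0.102), Cntn1 (0.124) and Tmem234 (0.138), with a median of 1.26. For Eya1 probe A_52_P36315 they were Nek2 (0.0695), Oaf (0.119) and Tipin (0.124), and for the other Platr26 (0.235), Cbx7 (0.271) and Krt7 (0.288), with medians of 1.12 and 1.37. The likeness rests on 4 values for each gene. The 3 nearest of 13599 genes were picked, so their distances lie under the median by the way they were chosen.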

How the data were processed

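The authors' spot intensity values came from Agilent Feature Extraction: the submitters' processing notes name version 10.7.3.1, while version 10.10.1.1 stands in the header of replicate 4, per the file headers. The deposited intensity columns used were the processed signals, which that software background-subtracts and dye-normalizes within each array. For the 2 normexp settings among the alternatives, the median spot and background signals were used instead. The deposited log10 ratio and its error, a score, were not used for any test; the deposited p-value per spot is quoted where named. The authors' deposited table of log2 values followed the log2 of processed Cy3 over Cy5, with a slope of 1 on each array. It therefore runs as Cy3 over Cy5 on a log2 scale, and which RNA was in which dye rests on the labels. Its column medians were -0.163, 0.17, 0.133 and 0.107, so the columns were not centred to a median of 0. A constant shift of a column was not checked.

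Here, the log2 of processed Cy3 (follistatin) over Cy5 (untreated) was taken per spot without further normalization. Control spots and outlier spots were left out, 0 spots were saturated, and repeated spots were averaged by probe. The detection filter kept a probe that 1 channel showed well above background on 3 arrays or more (27016 of 41174). The ratio was tested against 0 with limma 3.58.1 (lmFit, eBayes) in R 4.3.3 with Benjamini-Hochberg adjustment over all probes tested; the code was tested on simulated data. Statmod 1.5.0 and data.table (version 1.17.8) were also used. For a list, the brightest tested probe stood for a gene. The number of arrays limits the precision.

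Gene names came from the array annotation, updated through a RefSeq table of GRCm38.p6 (27479 probes by accession, 6157 by symbol, 7538 left as in the file). The text names each probe of the 5 genes, and from each list of related genes up to 4 tested genes of smallest p, with the myogenic bHLH factors and some relatives and receptors that the rule fixes. Dpt, Cebpa and Cd68 among the cell type markers were named after their values were seen. One gene of the list of relatives is not reported here. The 5 genes and the lists were chosen with earlier results of these data known. The alternatives were 2 normexp settings, median centring, both filters, a floor of 20, 1 probe per gene, each replicate left out, replicates 2 and 3 averaged, the slide as a random block and the unpaired test of the series' design text.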

Additional observations from a re-analysis of the deposited data

How the results depend on the processing

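Over 14 alternatives, Pax7 stayed between -0.44 and -0.11 (adjusted p 0.290 to 0.865), Six4 between 0.21 and 0.48 (0.245 to 0.722) and the Eya1 probe A_52_P36315 between 0.07 and 0.37 (0.316 to 0.898), and none of the 3 passed the threshold. Leaving out 1 replicate gave -0.44 to -0.18 for Pax7, 0.26 to 0.48 for Six4 and 0.07 to 0.37 for A_52_P36315. The Eya1 probe A_51_P375378 went from -0.30 to 0.16, turning its sign without replicate 1 (0.16) and without replicate 2 (0.03), and Myod1 turned to -0.12 without replicate 1; the cause was not tested. The 2 probes called among all probes, Ces3b and Olfr1299, were lower with follistatin, not well above background in its channel on any array, and named after their values were seen. The count of calls was 0 with normexp and loess, with normexp and median centring, with the filter on both channels, with a floor of 20, without any 1 replicate and with replicates 2 and 3 averaged; in the last case Pax7 had -0.25 and Six4 0.31. It stayed at 2 with median centring, without a filter, with 1 probe per gene and with the slide as a random block. The array pairs the follistatin and untreated RNA in each limma fit; without this pairing (no replicate block) the methods' t-test passed 3 probes. Unadjusted p-values under 0.05 numbered 5606, and 2574 without replicate 3 and 7656 without replicate 4. With 4 arrays, ratios near those of Pax7 and Six4 have intervals that include 0.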
